A study of Mus musculus with 6 samples.

Results

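The Hox clusters are 4 stretches of the mouse genome in which genes for homeodomain transcription factors lie side by side. The data described here are the CpG methylation levels across these stretches in embryonic mouse cortex, in the promoters, in the gene bodies and in the spaces between the genes. The 38 listed Hox genes (10 in HoxA, 10 in HoxB, 9 in HoxC and 9 in HoxD) set the members: every CpG cytosine read at least 6 times in all 6 libraries, from 20 kb below the lowest to 20 kb above the highest listed gene of its cluster. By this rule 1810 of the 646645 cytosines that met the same minimum genome-wide were members, 457 of them in promoters (the 1000 bp before and the first 500 bp after the start of a gene), 941 in bodies and 412 in spaces. Another 108 cytosines of the same stretches belong to other protein-coding genes, 19 in HoxA and 89 in HoxD, and were set aside.

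The 6 libraries came from full cortex of C57BL/6 embryos at embryonic day 16 and were sequenced by Ox-RRBS, an oxidative form of reduced representation bisulfite sequencing in which DNA is cut with MspI, oxidized and treated with bisulfite, so that 5-hydroxymethylcytosine is read as unmethylated and the percentage of C reads measures 5-methylcytosine alone. The 3 control embryos are labelled Uhrf1 +/- and the 3 conditional knockout (cKO) embryos Uhrf1 -/-. The study gives the alleles in a figure legend on younger embryos. These carried a single Emx1-Cre allele, together with Uhrf1 fl/+ in controls and Uhrf1 fl/fl in cKO embryos. Emx1-Cre acts in the progenitors of the dorsal telencephalon, so cells of other origin in the dissected cortex keep Uhrf1, and a level in a cKO library is a mean over both kinds of cell. Methylation alone does not allow the labelled tissue to be checked against marker genes.

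Hox genes encode transcription factors that give cells their position along the body axis, and within a cluster the genes stand in the order in which they are used from head to tail. The forebrain lies anterior to the domains in which Hox genes are normally used, and in such tissue the clusters are known as large domains held by Polycomb group proteins. UHRF1 binds hemimethylated CpGs behind the replication fork and brings in DNMT1, the enzyme that copies methylation to the new strand, so that dividing cells without UHRF1 dilute the methylation they carry.

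Reads over the 1810 cytosines numbered 36051 to 57803 per library, and the median coverage of a Hox cytosine was 17 to 28 reads. The library labelled control replicate 1 stood apart from the other controls throughout the genome: its mean over all 646645 cytosines was 15.6%, against 39.4% in control replicate 2 and 38.9% in control replicate 3, and 19.6%, 19.4% and 15.8% in cKO replicates 1, 2 and 3. The tests between the groups were therefore run with all 6 libraries and again without control replicate 1, and several levels are given for control replicates 2 and 3 where so stated. The labels do not say more about the embryos than their genotype, so a p-value here speaks of the spread among 6 libraries, which may be technical.

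A few stretches of sequence show where the clusters hold methylation and where they do not. Each is 100 bp of the plus strand of GRCm38, and the capitals mark CpGs in which at least 1 cytosine was measured. The first lies in Gm11539, a processed pseudogene between Hoxb13 and Hoxb9 (chr11:96248801-96248900), and was the only one to meet the rule for naming methylated windows. The second (chr11:96254501-96254600) is, among windows under 1% on the Hoxb9 side of the pseudogene, the one with most cytosines and reads. The other sequences were chosen after their values were seen: a window in the non-coding gene Haglr between Hoxd3 and Hoxd1 (chr2:74759501-74759600), a window in the flank beyond Hoxb1 (chr11:96383501-96383600) and a window in a Hoxc13 intron (chr15:102923101-102923200).
Gm11539: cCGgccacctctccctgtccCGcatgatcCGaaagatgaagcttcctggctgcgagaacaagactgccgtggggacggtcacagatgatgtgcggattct
Hoxb9 side of the pseudogene: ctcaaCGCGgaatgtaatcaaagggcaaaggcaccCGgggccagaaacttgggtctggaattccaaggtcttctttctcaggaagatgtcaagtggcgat
Haglr: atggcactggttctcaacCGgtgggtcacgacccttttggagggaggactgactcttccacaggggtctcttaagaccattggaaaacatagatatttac
Flank beyond Hoxb1: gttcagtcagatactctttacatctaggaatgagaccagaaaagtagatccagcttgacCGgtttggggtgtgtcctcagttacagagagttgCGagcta
Hoxc13 intron: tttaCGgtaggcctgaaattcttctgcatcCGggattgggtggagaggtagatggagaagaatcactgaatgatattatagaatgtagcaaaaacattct

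The Gm11539 window and the unmethylated one in the same space had opposite levels. In the Gm11539 window, 84.3% and 88.5% of the reads were methylated in control replicates 2 and 3, 28.1% in control replicate 1 (95% Wilson interval 20.9% to 36.7%, 121 reads), and 33.0%, 38.6% and 33.0% in the cKO libraries. In the window on the Hoxb9 side, no library was above 0.917%, with 39 to 137 reads per library; no methylated read was seen in 3 libraries, where the 39, 58 and 137 reads allow up to 7.69%, 5.17% and 2.19%. These intervals and limits cover counting error only.

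Hox gene bodies were almost free of methylation in every library, in contrast to bodies elsewhere. The mean over the 941 body cytosines was 1.07%, 1.39% and 1.70% in the 3 control libraries and 1.12%, 2.34% and 1.94% in the 3 cKO libraries. Over the 301604 body cytosines of all other protein-coding genes, the same means were 18.2%, 48.1% and 47.6% in controls and 23.2%, 22.6% and 18.2% in cKO. The Hox bodies thus stayed between 1% and 3% in all 6 libraries, whereas elsewhere control replicates 2 and 3 stood far above the other 4 libraries.

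The spaces held somewhat more methylation, most of it in HoxB, whose cytosines made up 73.9% of the summed level of the Hox spaces in control replicates 2 and 3 and 61.2% in cKO. Over the 412 space cytosines the means were 2.44%, 5.42% and 5.58% in controls and 2.52%, 3.76% and 3.48% in cKO, compared with 25.6%, 61.1% and 60.7% and 31.4%, 30.8% and 25.3% in 167775 space cytosines of the rest of the genome. In HoxB spaces (160 cytosines) the means were 4.26%, 10.2% and 10.7% in controls and 4.53%, 5.75% and 5.09% in cKO. Control replicates 2 and 3 were the only libraries above 6% there, and control replicate 1 lay below all 3 cKO libraries. Spaces of HoxD (80 cytosines) came next, with 1.34%, 4.03% and 3.05% in controls and 1.67%, 3.05% and 2.29% in cKO, and those groups overlapped. Spaces of HoxA and HoxC had control means of 1.11% ± 0.38 and 2.23% ± 0.42 (SD, n = 3) and cKO means of 1.60% ± 0.75 and 2.34% ± 0.84 (SD, n = 3). Hox promoters, with control values of 1.09%, 1.35% and 1.24% and cKO values of 0.846%, 2.33% and 2.16%, were as empty as the bodies.

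**Figure D1:**
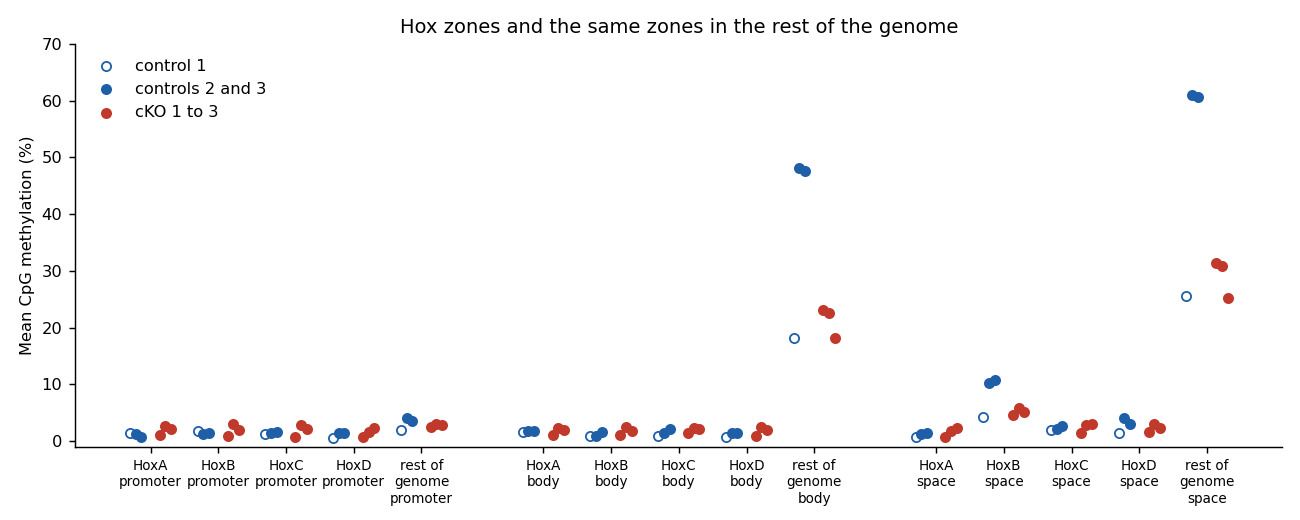
Mean CpG methylation in percent (y axis) of each library in promoters, bodies and spaces of the 4 Hox clusters and of the rest of the genome (x axis), with control libraries in blue, control replicate 1 as an open circle and cKO libraries in red. Bodies and spaces of the rest of the genome separate control replicates 2 and 3 from the other libraries, and among Hox zones HoxB spaces alone reach 10%.

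With 3 libraries a group, no combination of cluster and zone could pass a threshold of 0.05. With all 6 libraries the groups of HoxB spaces overlapped through control replicate 1, and without it they did not overlap. In HoxB spaces the cKO minus control difference was -3.27 percentage points (2-sided exact permutation test, p = 0.4, adjusted p = 0.686 over 12 zones). Without control replicate 1 the difference was -5.34 points (exact permutation p = 0.1, adjusted p = 0.84), and 0.1 is the smallest p that 2 against 3 or 3 against 3 libraries allow. The HoxB difference rested on the space between Hoxb13 and Hoxb9: without it, an alternative added after the data were seen, the difference was -0.37 points (exact permutation p = 0.9). With a minimum of 10 reads, which left 108 of the 160 cytosines, the difference was -4.0 points (exact permutation p = 0.4), and with 20 reads, which left 42, it turned to +0.31 points (exact permutation p = 1).

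With all 6 libraries the other 11 zones differed by less than 1 point, 10 of them with a higher cKO mean. When control replicate 1 was left out the cKO mean was lower in 2 of the 11, with a difference of -1.2 points in HoxD spaces (exact permutation p = 0.3) and of -0.027 points in HoxC spaces (exact permutation p = 1). Beside these small differences stand the mitochondrial CpGs, 20 cytosines in a DNA that is known to carry little CpG methylation. C reads made up 0.922%, 1.14% and 1.05% in controls and 0.963%, 3.67% and 3.35% in cKO. The order of the cKO libraries there, with replicates 2 and 3 above replicate 1, is also that of the Hox bodies and promoters. The part of such reads in the Hox values was not tested.

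The gap between Hox zones and the rest of the genome was narrower in cKO than in control replicates 2 and 3. For bodies, the Hox mean minus the mean of the rest was -17.1, -46.7 and -45.9 points in controls and -22.0, -20.3 and -16.3 points in cKO, so that the difference between groups was 17.0 points (exact permutation p = 0.3, adjusted p = 0.3 over 3 zones). For spaces the values were -23.1, -55.6 and -55.1 points in controls and -28.9, -27.0 and -21.8 points in cKO, a difference of 18.7 points with the same p-values. Without control replicate 1 these differences were 26.8 and 29.5 points (exact permutation p = 0.1 and adjusted p = 0.1 for each). In the rest of the genome the cKO minus control difference with all 6 libraries was -16.6 points in bodies and -19.9 points in spaces. In the Hox zones it was 0.414 and -1.23 points. For bodies and spaces the gap thus mostly follows the level of the rest of the genome and is no separate result about the Hox zones. Promoters differed little from other promoters, by -1.92 ± 1.01 points in controls and -0.98 ± 0.49 points in cKO (SD, n = 3; exact permutation p = 0.2, adjusted p = 0.3), and without control replicate 1 the difference between groups was 1.52 points (exact permutation p = 0.1, adjusted p = 0.1).

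Hox bodies were below other bodies also where cytosines of like CpG content were compared. CpG islands, taken as stretches of at least 200 bp with a GC content over 50% and an observed-to-expected CpG ratio over 0.6, covered 30.8% of the HoxA stretch, 19.6% of HoxB, 21.5% of HoxC and 25.8% of HoxD, and 807 of the 941 Hox body cytosines lay in them. Body cytosines within islands had a mean of 1.09% in control replicates 2 and 3 in Hox genes and 27.3% in other genes. Outside islands the 134 Hox body cytosines were at 4.28%, compared with 67.3% in other genes. Thus the Hox bodies were lower on either side of that division.

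The same held when cytosines of bodies and spaces were grouped by the number of CpGs in the surrounding 500 bp. With 10 to 19 CpGs, Hox cytosines had a mean of 2.70% in control replicates 2 and 3 and those of the rest of the genome 63.9%. With 20 to 39 CpGs the means were 1.83% and 28.0%, and with 40 or more CpGs they were 0.878% and 2.92%, the only class in which the rest of the genome was nearly as empty. The sparsest class, 0 to 9 CpGs, was the most methylated of the Hox clusters. Its 76 cytosines were at 5.87%, 18.2% and 19.3% in controls and at 8.10%, 7.22% and 8.51% in cKO. In this class control replicates 2 and 3 were above all 3 cKO libraries and control replicate 1 was below them.

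**Figure D2:**
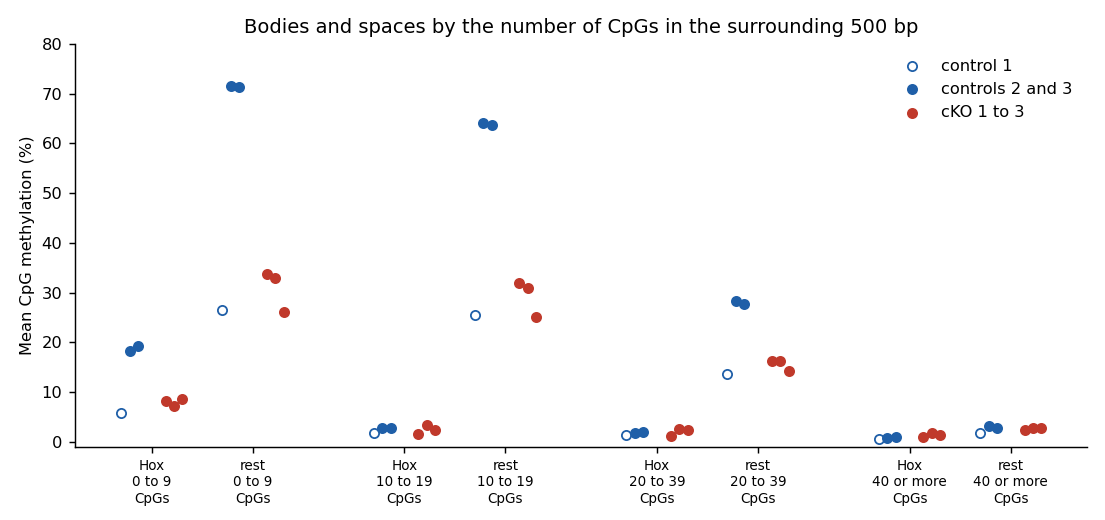
Mean CpG methylation in percent (y axis) of body and space cytosines in the Hox clusters and in the rest of the genome, by the number of CpGs in the surrounding 500 bp (x axis), with 1 point per library (open blue, control replicate 1; blue, control replicates 2 and 3; red, cKO). Hox cytosines lie below the rest in every class, and only those with 0 to 9 CpGs exceed 5% in the mean.

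Within the bodies, coding sequence was the emptiest. The 417 coding-exon cytosines of Hox genes averaged 0.98% ± 0.32 over control replicates 2 and 3 and 1.5% ± 0.44 over the cKO libraries (SD), while coding exons elsewhere were at 51.4% and 22.4%. Hox introns (375 cytosines) were at 1.92% and 2.04%, compared with 50.1% and 22.6% elsewhere. Nor did the place of a gene along the cluster bring a large change: bodies of paralogue groups 1 to 3, the most anterior genes, were at 1.53%, groups 4 to 8 at 1.29% and the posterior groups 9 to 13 at 1.95% in control replicates 2 and 3, with SDs of 0.11, 0.31 and 0.28 (n = 2).

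Body levels could be given for 37 of the 38 genes, since no cytosine of the Hoxa6 body met the coverage minimum in all libraries. A body or other feature is given as the percentage of its reads that were methylated, summed over at least 3 cytosines (at least 1 in the windows described further on), and was called lower or higher in cKO if its q was under 0.01 and the group means differed by 25 points or more. Over the 37 bodies the control means ran from 0.273% to 13.9%, with a median of 1.11%, and the cKO means from 0.45% to 7.63%, with a median of 1.76%. The control mean was under 5% in 35 bodies. No Hox body was called in the quasi-binomial test with moderated dispersion, whether with all 6 libraries (0% of 13028 bodies genome-wide were called lower) or without control replicate 1 (60.7% called lower). None of the 37 passed an unadjusted p of 0.05 in either fit (22.1% and 82.0% genome-wide). A plain binomial test called none of them either (5016 and 8254 of 13028 called lower genome-wide). With control replicates 2 and 3 all below 25%, no Hox body could have lost the 25 points that a call needs, whereas 10053 of the 13028 bodies could. Among bodies with at least 10 measured cytosines, 26 of 26 Hox bodies and 871 of 8292 other bodies (10.5%) were under 5% in control replicates 2 and 3.

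**Figure D3:**
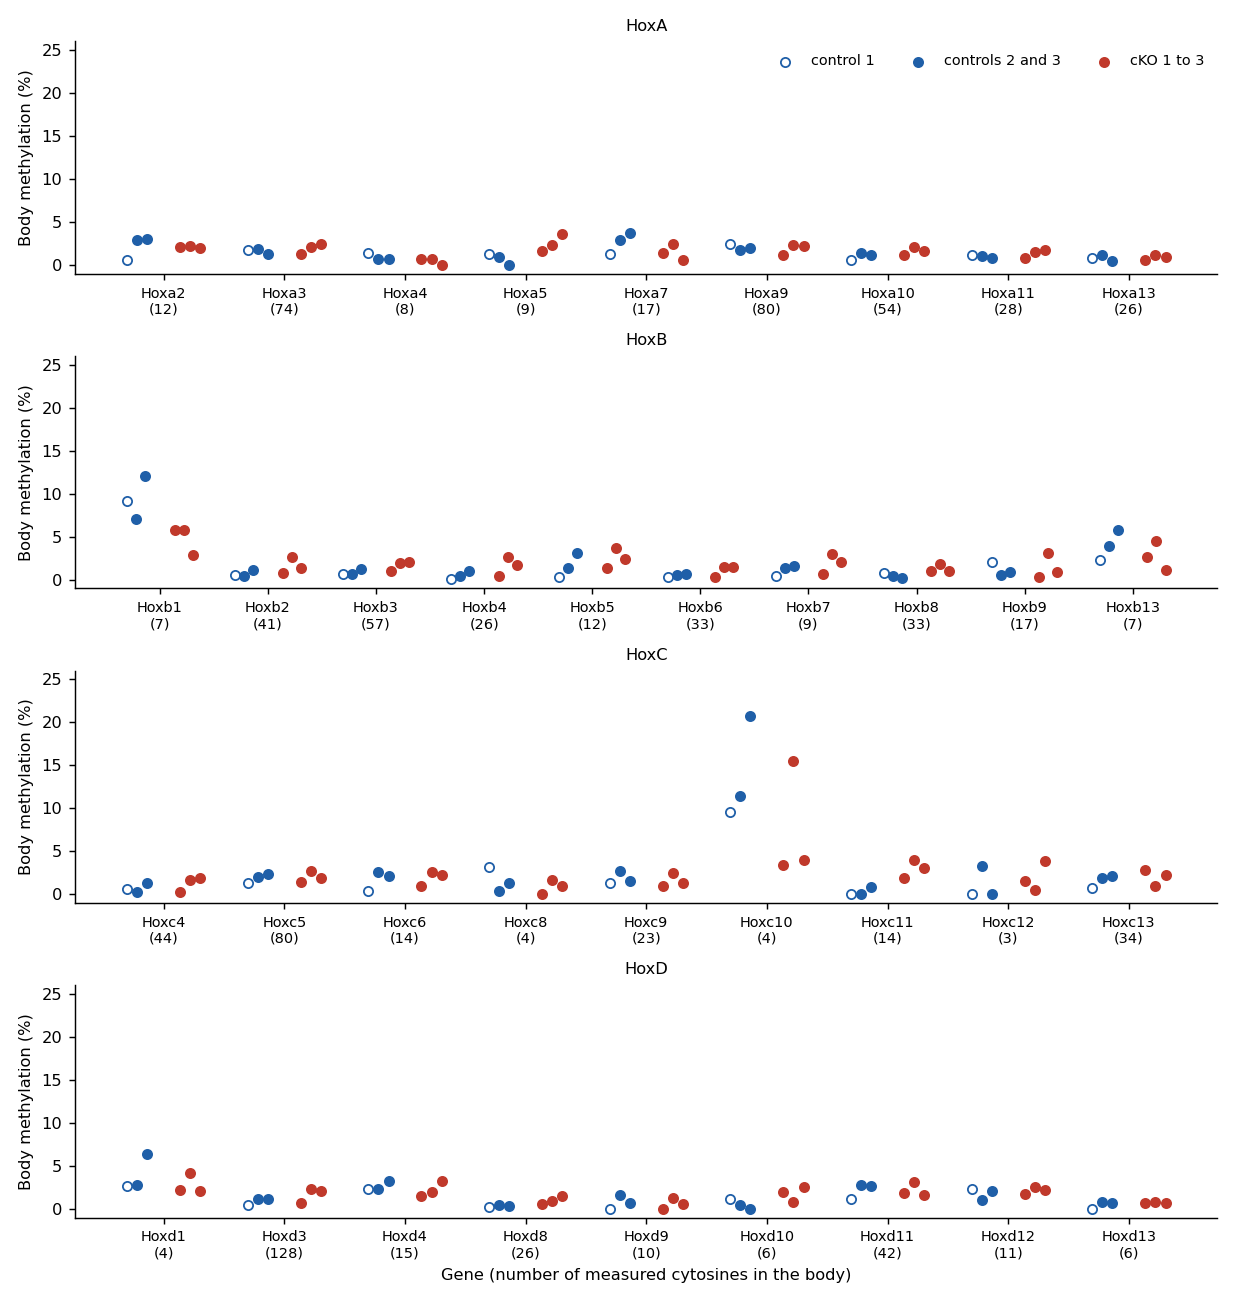
Body methylation in percent of reads (y axis) of the 37 measured Hox genes (x axis, number of cytosines in brackets) in each library, with control libraries in blue, control replicate 1 open, and cKO libraries in red. Hoxc10 and Hoxb1 stand above the other genes in the control libraries, and the groups of most genes overlap.

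In HoxC the most methylated body was that of Hoxc10, a posterior gene used in lumbar and hindlimb tissue, at 9.52%, 11.5% and 20.7% in controls and 3.38%, 15.5% and 3.97% in cKO, over 4 cytosines that also lie in the long annotated span of Hoxc5. The groups overlapped through cKO replicate 2. Hoxc5 itself, with 80 cytosines, had 1.37%, 2.03% and 2.34% in controls and 1.49%, 2.68% and 1.91% in cKO. Hoxc9, a gene of the thoracic level, was at 1.88% ± 0.71 and 1.60% ± 0.78, and Hoxc6 at 1.70% ± 1.18 and 1.93% ± 0.87 (control and cKO, SD, n = 3 each). Hoxc6 and Hoxc5 share part of their annotated spans, as do 77 of the 941 body cytosines in all.

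In HoxB, Hoxb1, which marks rhombomere 4 of the hindbrain, had the highest body level, 9.14%, 7.02% and 12% in controls and 5.74%, 5.80% and 2.94% in cKO over 7 cytosines. All 3 control libraries were above all 3 cKO libraries, with control replicate 1 among the controls. The most methylated of the 7 cytosines lies in the last exon and is described below. In the bodies of Hoxa5, Hoxb8, Hoxc11 and Hoxd8 the order was the reverse, with all 3 cKO libraries above all 3 control libraries and no level above 3.96%. With all 6 libraries the unadjusted quasi-binomial p was 0.38 to 0.63 in these bodies and 0.499 in Hoxb1. The share of all bodies genome-wide in which the groups did not overlap was not counted. Hoxb13, the most posterior gene of the cluster, was at 2.29%, 3.94% and 5.80% in controls and 2.70%, 4.51% and 1.12% in cKO. Hoxb5 was at 1.60% ± 1.41 in controls and 2.52% ± 1.14 in cKO and Hoxb9 at 1.19% ± 0.77 and 1.44% ± 1.45 (SD, n = 3). Hoxb2, the deepest read body of the cluster with 41 cytosines, had 0.561%, 0.412% and 1.11% in controls and 0.759%, 2.61% and 1.43% in cKO.

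In HoxA and HoxD no body reached 4% in the control mean. Hoxa7 was the highest of HoxA, at 1.36%, 2.99% and 3.73% in controls and 1.43%, 2.50% and 0.656% in cKO, followed by Hoxa2, the gene of the second branchial arch, at 2.21% ± 1.37 and 2.11% ± 0.09 (SD, n = 3). With a minimum of 10 reads the cKO minus control difference of Hoxa2 was 3.69 points, against -0.10 points here. Hoxa9 (80 cytosines) was at 2.06% ± 0.33 in controls and 1.92% ± 0.66 in cKO, and Hoxa3 (74 cytosines) at 1.65% ± 0.32 and 1.96% ± 0.62 (SD, n = 3). In HoxD, Hoxd1 had 2.63%, 2.78% and 6.38% in controls and 2.22%, 4.23% and 2.08% in cKO over 4 cytosines. Hoxd4, Hoxd11 and Hoxd12 had control means of 2.65%, 2.18% and 1.83% and cKO means of 2.27%, 2.2% and 2.13%. Hoxd3, with 128 cytosines the best covered body of all, was at 0.489%, 1.13% and 1.16% in controls and 0.717%, 2.30% and 2.08% in cKO. The cKO mean was above the control mean in 25 of the 37 bodies, and above the mean of control replicates 2 and 3 in 22. These bodies are not independent, since 77 body cytosines lie in more than 1 listed gene. With all 6 libraries the median difference was 0.308 points over the 37 bodies and -21.2 points over all 13028 bodies. Over all 11787 promoters, whose median control level was 0.669%, it was 0.439 points. The share among other bodies of low level was not counted.

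Of the 38 promoters 30 were measured, and those of Hoxa3, Hoxa9, Hoxb2, Hoxb3, Hoxb6, Hoxb8, Hoxc4 and Hoxd11 had fewer than 3 covered cytosines. Their control means ran up to 5.19% with a median of 1.12%, and their cKO means from 0.216% to 3.63% with a median of 1.63%. The highest 3 were Hoxc10 at 5.19% ± 0.43 in controls and 2.95% ± 0.80 in cKO, Hoxb5 at 2.72% ± 1.49 and 0.94% ± 0.14, and Hoxb13 at 2.26% ± 1.54 and 1.93% ± 1.13 (SD, n = 3). No Hox promoter was called in the quasi-binomial test with all 6 libraries (0% called lower among 11787 promoters) or without control replicate 1 (0.806% called lower), none had an unadjusted p under 0.05 and none was called by the plain binomial test. The cKO mean was higher in 24 of the 30. Promoters genome-wide had the same direction, with a median difference of 0.439 points over all 11787 and of 0.567 points over the 30. The share of all promoters with a higher cKO mean was not counted.

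Methylation in the clusters was concentrated in few cytosines. At a mean of at least 25% in control replicates 2 and 3, 26 of the 1810 cytosines were methylated: 20 in spaces, 5 in bodies and 1 in a promoter. In bodies and spaces together this was 25 of 1353 (1.85%), compared with 65.5% of the cytosines of bodies and spaces in the rest of the genome, and 87.1% of the Hox cytosines were under 5%, compared with 27.1%. HoxB held 19 of the 26 and HoxA only 1, a cytosine in Hoxa10 that reached the threshold through 8 reads of control replicate 2. Of the 26 cytosines 18 lay outside islands, and 4 lay in sequence masked as repeats. With a minimum of 10 reads 20 cytosines reached the threshold and with 20 reads 5 did, both added after the data were seen.

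**Figure D4:**
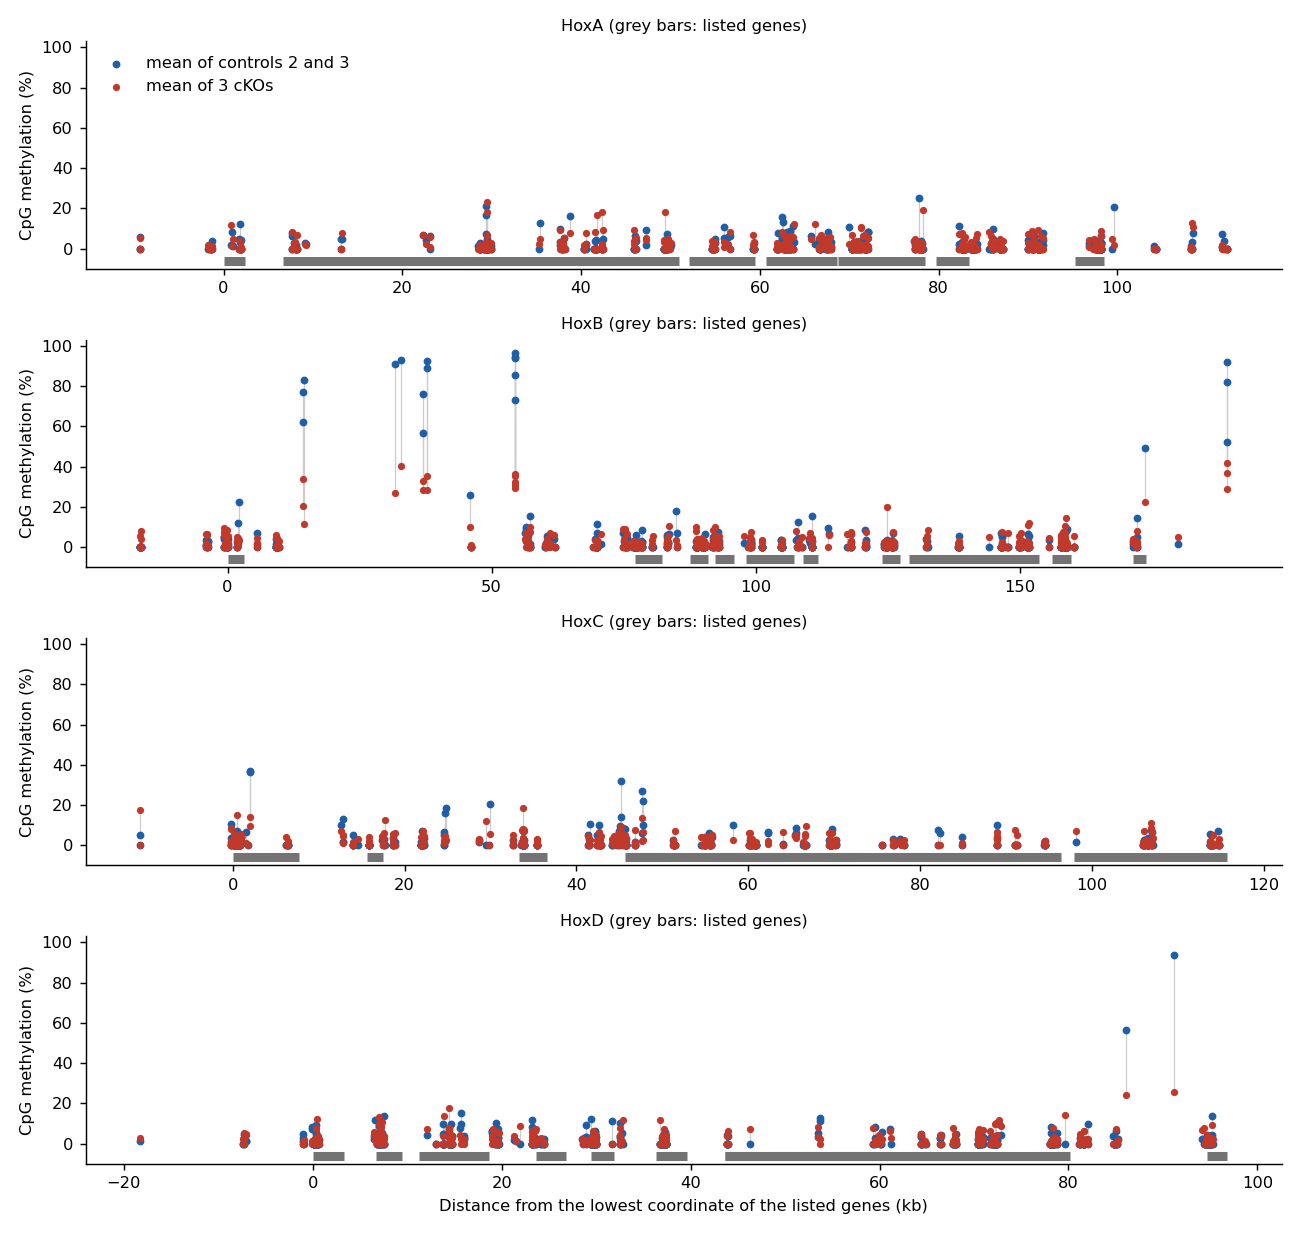
CpG methylation in percent (y axis) of each measured cytosine along the 4 clusters, against distance in kb from the lowest coordinate of the listed genes (x axis), with the mean of control replicates 2 and 3 in blue, the mean of the 3 cKO libraries in red and a line joining both. The grey bars are the listed genes, and the tall lines stand in the left part of HoxB, at its right flank, in HoxC near Hoxc13 and Hoxc10 and in HoxD before Hoxd1.

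The 26 cytosines had a mean of 17.8%, 68.4% and 67.9% in the control libraries and 28.3%, 23.3% and 23.8% in the cKO libraries. Since control replicates 2 and 3 chose them, their levels in these 2 libraries are a description. The remaining 1328 body and space cytosines were at 1.17%, 1.34% and 1.64% in controls and 1.02%, 2.38% and 1.99% in cKO.

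**Figure D5:**
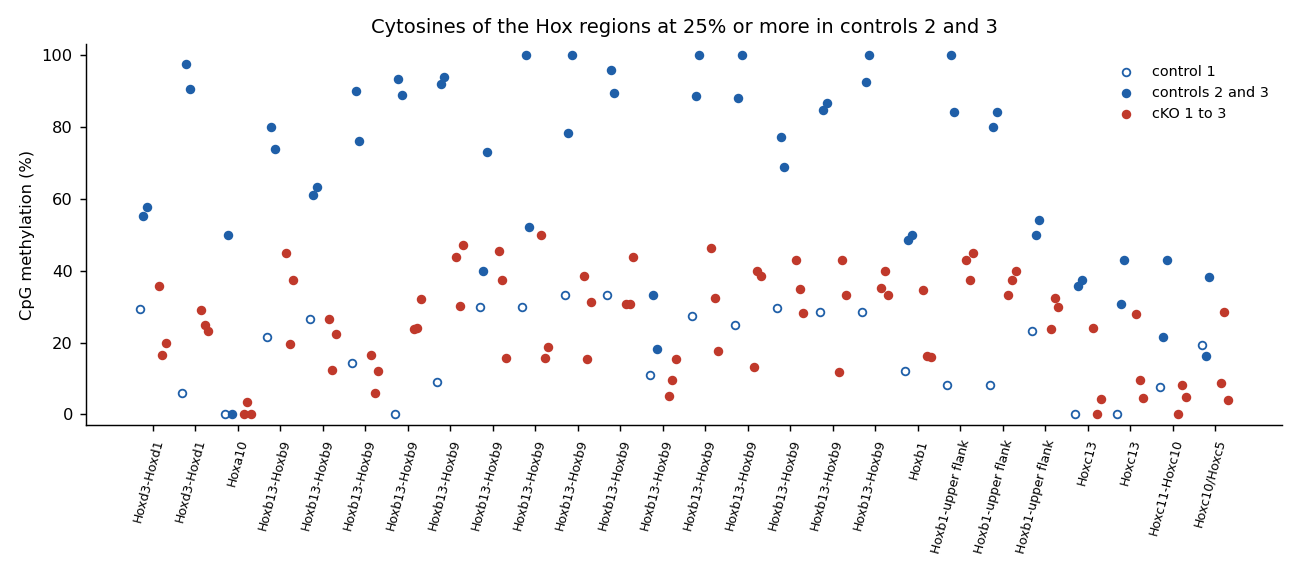
CpG methylation in percent (y axis) of the 26 Hox cytosines at 25% or more in control replicates 2 and 3, in chromosome order and named by the gene or the space they lie in (x axis), with 1 point per library (open blue, control replicate 1; blue, control replicates 2 and 3; red, cKO). Most of the cytosines belong to the space between Hoxb13 and Hoxb9.

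The space between Hoxb13 and Hoxb9, 73.0 kb long, held 15 of them. Within it the methylation ended at the pseudogene Gm11539 (chr11:96248633-96249189). The 43 cytosines up to the far end of the pseudogene were at 8.83%, 27.9% and 28.1% in controls and 11.5%, 9.94% and 10.7% in cKO. The 54 cytosines from there to the Hoxb9 promoter were at 2.83%, 1.91% and 3.15% in controls and 1.63%, 2.47% and 2.08% in cKO, 42 of them were under 5% in control replicates 2 and 3, and the highest was 15.4%. The last methylated cytosine and the next covered one lie 1855 bp apart, so the place at which the level drops is known only to within that distance. The 5 cytosines of Gm11539 itself, which the annotation gives as a single exon of a processed pseudogene, were at 27.9%, 86.2% and 91.1% in controls and 29.9%, 38% and 30.3% in cKO, although they lie in a CpG island.

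Taken as whole features, 17 Hox spaces had at least 3 cytosines and none was called with all 6 libraries (0% of 7941 spaces called lower) or without control replicate 1 (75.2% called lower). Only 1 of the 17 reached 25% in control replicates 2 and 3 and could lose the 25 points of a call (90.6% genome-wide). Without control replicate 1, 3 of the 17 had an unadjusted p under 0.05 (91.3% genome-wide) and the plain binomial test called 1 lower (6191 of 7941 genome-wide). The space between Hoxb13 and Hoxb9 had 4.85%, 13% and 13.4% of its reads methylated in controls and 5.45%, 5.32% and 5.74% in cKO, a difference of -4.89 points with a q of 0.219, or -7.66 points with a q of 2.4e-05 without control replicate 1, below the 25 points that a call needs. The flank beyond Hoxb1, the only space above 25%, was at 10%, 46.8% and 62.5% in controls and 14.7%, 21.8% and 29.2% in cKO over 4 cytosines (q = 0.406, and q = 0.0125 without control replicate 1). The space between Hoxd3 and Hoxd1 was at 1.77%, 8.61% and 7.07% in controls and 3.17%, 3.84% and 2.66% in cKO (q = 0.416, and q = 0.0067 without control replicate 1). In all 3 spaces control replicates 2 and 3 were above every cKO library and control replicate 1 was below every cKO library.

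The other well covered spaces were nearly unmethylated in both groups. Between Hoxa11 and Hoxa13, where 63 cytosines were measured, control and cKO means were 1.14% ± 0.58 and 1.96% ± 1.13, and in the flank beyond Hoxa13 they were 2.24% ± 0.44 and 1.43% ± 0.66 (SD, n = 3). The flank below Hoxb13 was at 1.01% ± 0.52 and 1.91% ± 1.12, so the methylated cytosines of HoxB lay on the other side of that gene. Between Hoxc12 and Hoxc11, where Hotair is transcribed, the means were 1.81% ± 0.81 and 1.96% ± 0.62, between Hoxc11 and Hoxc10 1.95% ± 0.53 and 1.48% ± 0.77, and between Hoxd11 and Hoxd10 1.66% ± 0.94 and 1.68% ± 1.32 (SD, n = 3).

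In windows of 100 bp, 603 of 285466 windows were Hox windows, and none was called lower or higher with all 6 libraries (0% called genome-wide). In that fit 1 of the 603 had an unadjusted p under 0.05 (15.2% genome-wide), and 7 were called lower by the plain binomial test (107040 of the 285466 genome-wide). When control replicate 1 was left out, 12 Hox windows were called lower (43.8% genome-wide) and none higher (0.0021% genome-wide). Of these 12, 10 were in HoxB spaces and 2 in HoxD spaces, and 11 held only 1 or 2 cytosines. In the fit without control replicate 1, 25 of the 603 had an unadjusted p under 0.05 (58% genome-wide), and the plain binomial test called 13 lower (157440 of the 285466 genome-wide). Only 16 Hox windows had a level of at least 25% in control replicates 2 and 3 and could lose the 25 points, 14 of them in spaces, compared with 65.4% of all windows. A count of calls among Hox windows is therefore a count among few.

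The 182 Hox windows with at least 3 cytosines and 30 reads in every library included 1 that could fall, the Gm11539 window printed above. Without control replicate 1 it fell by 51.5 points in the quasi-binomial test (q = 5.36e-07), and with all 6 libraries its difference of -32.1 points had a q of 0.337. The same rule named 1 rise of at least 5 points over control replicates 2 and 3, a window in the Hoxa3 body (chr6:52211801-52211900, 4 cytosines). Methylated reads there made up 2.22% in control replicate 1, none of 64 and 91 reads in control replicates 2 and 3, which allow up to 4.69% and 3.30%, and 2.50%, 2.02% and 11.4% in cKO. The value of cKO replicate 3 stood alone, and the window was not called (q = 0.477, and q = 0.0462 without control replicate 1).

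Windows of fewer cytosines, chosen after their values were seen, had the same pattern of libraries. The Haglr window, with 1 cytosine, was at 5.88%, 97.3% and 90.5% in controls and 29.0%, 25% and 23.1% in cKO, and was called lower without control replicate 1 (difference -68.2 points, q = 2.14e-05). The window in the flank beyond Hoxb1, with 2 cytosines and 16 to 40 reads, was at 8.33%, 89.3% and 84.2% in controls and 37.5%, 37.5% and 42.5% in cKO and was also called (difference -47.6 points, q = 0.00135). Another window, between Hoxb13 and Hoxb9 (chr11:96208701-96208800, 1 cytosine), was at 14.3%, 90.0% and 76.0% in controls and 16.7%, 5.88% and 12% in cKO (difference -71.5 points, q = 7.15e-05). In the Hoxc13 intron, 33.3% and 40% of the reads were methylated in control replicates 2 and 3, none of 26 reads in control replicate 1 (95% Wilson interval up to 12.9%), and 26%, 4.76% and 4.44% in cKO, which was not called (q = 0.0892 without control replicate 1). The cytosine in the last exon of Hoxb1 was at 12.1%, 48.4% and 50.0% in controls and 34.5%, 16.1% and 16% in cKO.

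Most non-coding genes within the clusters shared the low levels. Means over cytosines are given here. Hotairm1, which is transcribed from the anterior end of HoxA, was at 0.635% ± 0.185 in controls and 0.879% ± 0.245 in cKO. Hoxa11os, the antisense partner of Hoxa11, was at 0.794% ± 0.169 and 1.45% ± 0.55, and Gm53, on the Hoxb9 side of Gm11539, at 2.18% ± 0.33 and 1.71% ± 0.22 (SD, n = 3). Haglr (41 cytosines) had 1.13%, 5.09% and 3.92% in controls and 1.88%, 2.97% and 2.55% in cKO. Hotair (7 cytosines) had 4.43%, 4.66% and 9.30% in controls and 2.60%, 3.49% and 1.66% in cKO, so all 3 control libraries, control replicate 1 included, were above all 3 cKO libraries. In the non-coding genes Hoxb3os, Hoxd3os1 and Gm27543 (8 cytosines) all 3 cKO libraries were above all 3 control libraries. No test was made of single non-coding genes. The share of such genes genome-wide in which the groups did not overlap was not counted.

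Genes that work with or upon Hox genes had more body methylation than the Hox genes. At least 25% in control replicates 2 and 3 was reached by 6 of 9 Hox cofactor bodies, 8 of 18 Polycomb and trithorax bodies and 6 of 13 bodies of retinoic acid signalling, and by none of the 37 Hox bodies. Genome-wide 10053 of 13028 bodies reached it. The medians of the 3 lists in these libraries were 32.0%, 21.2% and 24.9%, below the 61.3% of all bodies. With all 6 libraries no body of any of these lists was called. Without control replicate 1, where 60.7% of all bodies were called lower, 2 of the 9 cofactor bodies were called, those of Pbx4 (92.4% in control replicates 2 and 3, 39.4% in cKO) and Meis3 (83.1% and 31.2%), which encode TALE homeodomain partners of Hox proteins. Of the 18 Polycomb and trithorax bodies 5 were called, among them Kmt2b (86.4% and 28.2%) and Kmt2a (59.8% and 23.9%), which encode histone H3 lysine 4 methyltransferases, and Cbx2 (51.3% and 25%), which encodes a Polycomb chromobox protein. Of the 13 retinoic acid genes 4 were called, among them Aldh1a1 (71.7% and 28.2%) and Aldh1a3 (70.9% and 26.3%), which encode retinaldehyde dehydrogenases, and the retinoid receptor gene Rxrg (48.8% and 17.9%).

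Other homeobox genes were closer to the Hox pattern. Of 20 homeobox genes of the developing forebrain, only Cux2 and Cux1 had bodies of at least 25% in control replicates 2 and 3 and both were called without control replicate 1 (46.9% to 20.8% and 45.4% to 17.4%) but not with all 6 libraries (q = 0.21 for each). The median of the 20 was 1.56% in control replicates 2 and 3 and 2.21% in cKO. Of 8 ParaHox and Hox-linked homeobox genes, Cdx1 alone reached 25% and was called without control replicate 1 (64.4% to 27.4%) but not with all 6 libraries (q = 0.335), and their median was 1.46% and 2.34%. The median Hox body had 1.29% in control replicates 2 and 3 against 1.76% in cKO, and the median of all 13028 bodies at 61.3% and 24.9%. Low body methylation was thus measured in homeobox genes inside and outside the Hox clusters, and no test was made of a difference between these sets.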

How the data were processed

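Ox-RRBS libraries of E16 cortex (3 control, 3 cKO) were analysed from 1 table of CpG cytosines per library. According to the study's methods, the authors aligned the reads to GRCm38 with Genomatix tools, allowing no mismatches, took the methylation of each cytosine from the mappings, and used R and methylKit in further steps. Each deposited table gives the read count covering a cytosine and the percent of C and of T reads. The deposited tables hold no position under 6 reads and replicates were not pooled. Methylated reads were recovered as coverage times percent, with an error of at most 0.005 points.

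Genes were taken from GENCODE vM21 and sequence from the RefSeq copy of GRCm38. Promoters took precedence over bodies and listed genes over other genes of the same class. Zone means weight each covered cytosine equally and were compared with 2-sided exact permutation tests, adjusted by Benjamini and Hochberg. Windows, bodies, promoters and spaces were tested genome-wide, with q over all features of a kind, by a quasi-binomial F test on summed reads. Its dispersion was moderated by empirical Bayes, with a prior fitted on features of 5% to 95% methylation and a floor of 1, written in Python 3.11.15 with numpy 2.4.6 and scipy 1.17.1 and checked against limma 3.58.1. Reads were also simulated at the real coverage, with falls in few windows and all controls at the level of control replicates 2 and 3. Without control replicate 1, 19% of windows with a fall of 30 points and 54% with a fall of 45 points passed the q threshold. With all 6 libraries 36% and 79% passed it. By the full rule for a call, 1 of 285466 windows was called falsely without control replicate 1 and 0 with all 6 libraries. In the data far more windows changed, which alters the q threshold, so these shares are not the sensitivity of the tests above.

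The members, gene lists and tests were chosen with earlier results of these data known. Named were, per cluster, the 4 bodies of highest control mean and the most read body under 5%, the 2 best covered spaces on each side of 25%, windows outside promoters of at least 3 cytosines and 30 reads (the 3 largest falls and the smallest change from at least 25%, and 2 rises of at least 5 points), the highest 3 promoters, and up to 3 genes per list. Alternatives were other coverage minima, pooled reads, coding-span bodies, promoters at every transcript start, other dispersions, a q of 0.05, autosomes alone, a replicate block and each library left out. Coverage limits precision: a cytosine with 17 reads moves in steps of about 6 points.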

Additional observations from a re-analysis of the deposited data

Results flagged for a closer look

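The mitochondrial CpGs lie outside every comparison above. Over 20 cytosines, 3.67% of 13417 reads were C in cKO replicate 2 (95% Wilson interval 3.37% to 4.01%) and 3.35% of 17412 reads in cKO replicate 3 (3.1% to 3.63%), above the 0.922% to 1.14% of the control libraries and the 0.963% of cKO replicate 1. Their part in the Hox values was not tested.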

How the results depend on the processing

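Of 281 alternative values computed for the 23 results (12 zone differences, 3 differences relative to the rest of the genome and 8 counts of calls), 265 kept the direction and the side of the threshold. The HoxB space difference of -3.27 points turned to 0.31 with a minimum of 20 reads and was -4.0 with 10 reads, and the other zone differences that changed sign were under 0.5 points with all 6 libraries and a minimum of 6 reads. With a minimum of 10 reads the cKO minus control difference was -0.10 points in HoxC promoters and -0.35 in HoxC spaces, and with 20 reads it was -0.0083 in HoxB promoters. With reads pooled it was -0.0011 in HoxB promoters and -0.081 in HoxC spaces, and with coding-span bodies 0.29 in HoxD spaces. Leaving out each library gave ranges of -0.17 to 0.60 points in HoxC spaces, -1.20 to 0.14 in HoxD spaces, -0.14 to 0.41 in HoxA bodies and -0.063 to 1.02 in HoxB promoters. The cause was not tested. The number of windows called lower was 7 with the plain binomial test and 0 to 12 over the libraries left out, 12 without control replicate 1 and 0 without any other library. Of single bodies, Hoxa2 and Hoxc9 moved to 3.69 and -1.11 points with a minimum of 10 reads, and Hoxb13, Hoxc6 and Hoxd4 to 0.74, 1.42 and 0.58 points with coding-span bodies. Replicate numbers did not pair the libraries, since the deviations of same-numbered libraries correlated at -0.21, 0.06 and -0.27 across cytosines. With the replicate block no window, body, promoter or space was called (0 of each) and the HoxB space difference of -3.27 points had an exact permutation p of 0.5, where 0.25 is the smallest the block allows. No p below 0.1 was possible for a zone difference under any alternative. Coverage limits all values near 0, where 1 methylated read decides a level.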
